A study of Mus musculus with 12 samples.

Results

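The 10 genes described here are members of the Krüppel-like factor (KLF) family: Klf2, Klf3, Klf4, Klf5, Klf6, Klf9, Klf10, Klf13, Klf16 and Klf17. They were taken by name from a deposited table of 43472 genes, and all 10 were found. The measurements were RNA-seq profiles of whole CD1 mouse embryos (an outbred stock) collected as morulae, as early blastocysts or as late blastocysts. At each stage 2 libraries came from embryos given siRNA against Tdgf1 (Cripto, a co-receptor for Nodal) and 2 from embryos given a negative control siRNA, 12 libraries in 6 groups. All of them, controls included, were injected as zygotes, and GFP mRNA went in with the siRNA to mark injected embryos. The number of embryos in a library, and whether the 2 libraries of a group came from separate collections, is not stated in the sources used here, and p-values therefore cover the spread between libraries, which may be technical.

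KLF proteins bind GC-rich and CACCC-type DNA through zinc fingers at their carboxy terminus, and their amino-terminal parts differ and recruit either coactivators or corepressors. In mouse embryonic stem cells Klf2, Klf4 and Klf5 act redundantly to hold the naive pluripotent state, Klf4 downstream of LIF and Stat3. In the mouse embryo Klf5 is needed for trophectoderm and for blastocyst development. Klf3 represses through the corepressor CtBP, and Klf9, Klf10, Klf13 and Klf16 bind the corepressor Sin3.

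Between morula and late blastocyst the family changed its makeup. Klf2 and Klf4 were lower in late blastocysts, to 23.2% and 38.2% of their morula means, while Klf6 was 7.34-fold, Klf3 3.51-fold and Klf5 1.51-fold higher. Klf9 averaged 68.0 to 70.1 and Klf13 89.4 to 95.6 CPM (reads of a gene per 1000000 reads assigned to genes) at the 3 stages. No member passed the test between Tdgf1 siRNA and control siRNA at any stage in the unpaired fit, and Klf6 in morulae passed when same-numbered libraries were compared as pairs, a pairing that the labels do not state.

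Promoter sequence is shown for the 3 tested members with the largest stage changes on the limma scale among those that the RefSeq promoter table holds with a window free of annotated exons. Klf17, below the filter of that test, is not ranked here. Of the 10 members, 7 matched that table, and Klf5, Klf10 and Klf16 did not. Each stretch runs 5′ to 3′ on the gene's strand, from 250 to 51 bases before the RefSeq start (GRCm38.p6, 200 bases). Capitals mark GC boxes (GGGCGG on either strand), a motif of the kind that Sp and KLF proteins bind. Klf6 lies at chr13:5861239-5861438 on the plus strand, Klf2 at chr8:72318812-72319011 on the plus strand and Klf4 at chr4:55532526-55532725 on the minus strand.
Klf6: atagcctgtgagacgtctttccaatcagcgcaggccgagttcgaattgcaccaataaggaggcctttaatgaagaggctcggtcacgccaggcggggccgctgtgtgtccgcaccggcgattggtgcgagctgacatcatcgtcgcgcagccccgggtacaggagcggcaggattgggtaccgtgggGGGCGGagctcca
Klf2: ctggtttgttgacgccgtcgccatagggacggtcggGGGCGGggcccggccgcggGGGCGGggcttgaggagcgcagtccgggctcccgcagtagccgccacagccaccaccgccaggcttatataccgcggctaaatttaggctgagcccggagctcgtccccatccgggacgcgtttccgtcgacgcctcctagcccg
Klf4: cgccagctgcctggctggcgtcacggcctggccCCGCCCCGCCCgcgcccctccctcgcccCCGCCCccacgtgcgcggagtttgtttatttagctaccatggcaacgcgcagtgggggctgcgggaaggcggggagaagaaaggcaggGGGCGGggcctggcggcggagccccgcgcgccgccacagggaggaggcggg
Klf6 had 1 GC box in this stretch, Klf2 had 2 and Klf4 had 4, of which 2 overlap. The GC box occurred in 24.6% of all 32817 RefSeq windows of the same length. Klf6 also had 4 CCAAT boxes (CCAAT on either strand), a motif in 28.4% of windows, and Klf2 and Klf4 had none. Klf2 had 1 TATAA, read on either strand, a motif in 17.8% of windows, against none in Klf6 and Klf4. GC content was 62.5% in Klf6, 70.5% in Klf2 and 76.5% in Klf4, against a median of 51.5% over all windows. These matches describe letters in the windows only.

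The libraries held 10524640 to 13770264 reads assigned to genes, and 3 reads, the upper limit for a gene with a count of 0, stood for 0.218 to 0.285 CPM (counting error only). Tdgf1, the targeted gene, had 15.5 and 11 CPM in Tdgf1 siRNA morulae, against 29.4 and 23.4 CPM in control morulae, and 49.5 and 70.8 CPM in Tdgf1 siRNA late blastocysts, against 97.3 and 84.6 CPM in control late blastocysts. At the early blastocyst stage it had 9.27 and 15.2 CPM in the libraries labelled Tdgf1 siRNA, against 21.7 and 13.1 CPM in the libraries labelled control, so replicate 2 of that stage went against its labels. The log2 changes between stages average both arms and do not use these labels, while their errors and p-values, and the changes within single arms, do. Markers of the embryo's lineages were present: 6 of 6 epiblast, 6 of 6 trophectoderm and 4 of 5 primitive endoderm markers passed the filter on low values. Of 11 markers of cumulus and granulosa cells 2 passed (Amhr2 and Serpine2) and of 9 of blood and oviduct 3 passed (Cd74, Pecam1 and Vim), and none of the markers on either list was at 0 in all libraries. The cumulus and granulosa markers summed to 76.3 to 97.5 CPM in late blastocysts, against 22.5 to 49.7 CPM in morulae and early blastocysts; their part in the stage differences was not tested. In whole embryos, fewer cells of a type and less RNA per cell cannot be told apart.

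**Figure D1:**
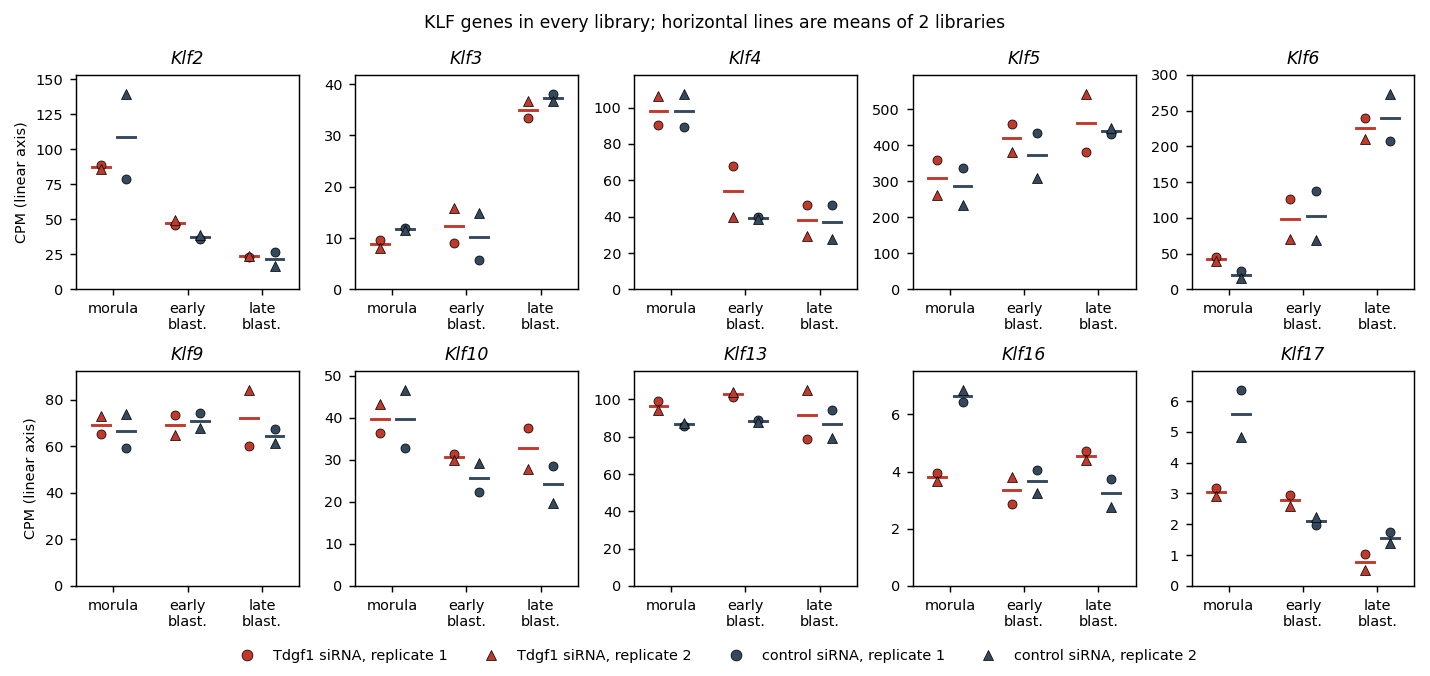
CPM of each KLF gene (y axis, linear, from 0) by stage (x axis) in all 12 libraries; red is Tdgf1 siRNA, dark blue control siRNA, circles replicate 1, triangles replicate 2, and horizontal lines means of 2 libraries. Klf2 and Klf4 are highest in morulae, Klf3 and Klf6 in late blastocysts, and Klf6 in morulae is higher in both Tdgf1 siRNA libraries (45.2 and 40.2 CPM) than in both control libraries (25.4 and 16.1 CPM).

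Stage comparisons asked how each gene differs along development, with 4 libraries a stage. These were counted as separate, although deviations of same-numbered libraries of the 2 arms correlated within a stage (0.458, 0.593 and 0.101 in stage order). The stage errors and p-values may therefore be too small. The test was limma on log2 of the value plus 1 in the deposited unit, which equals 3.58 CPM, so log2 changes of low genes are understated. It ran over 10751 genes whose mean was 1 or more in that unit, with p-values adjusted by the Benjamini-Hochberg method and a threshold of 0.05. Of the 10 members 9 passed this filter and were tested; Klf17 did not and was tested by itself. In early blastocysts against morulae 1 member was higher and 2 were lower; over all genes 33.7% were called, 19.7% higher and 14.0% lower. In late against early blastocysts 2 members were higher and 1 was lower, against 44.7% of all genes called (27% higher and 17.7% lower). In late blastocysts against morulae 3 were higher and 3 lower, against 60.9% of all genes called (36.6% higher and 24.3% lower). The members' median log2 change was 0.05, -0.01 and -0.04 in these comparisons, and that of all genes 0.05, 0.09 and 0.13. The shares of members called were 3, 3 and 6 of 9, near the background in each comparison. The split of all calls depends on scaling: under quantile normalization 46.8% of the calls in late against early blastocysts were higher, against 60.4% without it. Changes given below for the libraries of 1 arm alone are contrasts in the same fit of all 12 libraries and share its estimate of spread.

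Klf2 encodes an activator that in embryonic stem cells sustains naive pluripotency and in adult endothelium responds to blood flow. It had 78.8, 86.0, 88.6 and 139 CPM in the 4 morula libraries, 36.2, 38.5, 45.8 and 49.5 CPM in early blastocysts, and 16.9, 23.3, 23.8 and 27 CPM in late blastocysts. No library of one stage overlapped another stage, and replicate 2 of the control morulae lay above the rest. Klf2 fell by 1.12 (SE 0.18) on the log2 scale in early blastocysts against morulae (limma, adjusted p = 0.000435) and by 0.81 (SE 0.18) in late against early blastocysts (limma, adjusted p = 0.00228). Over the whole span it fell by 1.93 (SE 0.18), with an adjusted p of 7.81e-07 by limma. In Tdgf1 siRNA libraries alone it fell by 1.74 over the span, and in control libraries alone by 2.11.

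Klf4, one of the factors that reprogram somatic cells to pluripotency, had 89.1, 90.3, 106 and 107 CPM in morulae, 38.6, 39.9, 40.1 and 67.8 CPM in early blastocysts, and 27.7, 29.6, 46.3 and 46.6 CPM in late blastocysts. All morula libraries were above all blastocyst libraries, and the blastocyst stages overlapped. It fell by 1.05 (SE 0.19) in early blastocysts against morulae (limma, adjusted p = 0.00125), and the further difference of -0.28 (SE 0.19) in late against early blastocysts did not pass (limma, adjusted p = 0.252). Over the span Klf4 fell by 1.34 (SE 0.19; limma, adjusted p = 4.78e-05). In late blastocysts it split by replicate number, with a mean of 46.5 CPM in the libraries numbered 1 and 28.6 CPM in those numbered 2.

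Klf5, which the mouse embryo needs to form a working trophectoderm, had the highest mean per length at every stage. In morulae its range overlapped that of Klf2. Klf5 had 235, 263, 337 and 358 CPM in morulae, 308, 381, 435 and 458 CPM in early blastocysts, and 381, 431, 447 and 542 CPM in late blastocysts. Every late blastocyst library was above every morula library, and early blastocysts overlapped both. Klf5 split by replicate number without overlap at each stage, and the direction turned in late blastocysts. Libraries numbered 1 averaged 347, 446 and 406 CPM in stage order, and those numbered 2 averaged 249, 345 and 494 CPM. The log2 change in early blastocysts against morulae was 0.60 with early blastocysts numbered 1 alone and 0.22 with those numbered 2 alone. Klf5 was 0.60 higher (SE 0.16) in late blastocysts than in morulae on the log2 scale (limma, adjusted p = 0.00583), while the differences of 0.41 (limma, adjusted p = 0.0676) in early blastocysts against morulae and 0.19 (limma, adjusted p = 0.363) in late against early blastocysts did not pass. In Tdgf1 siRNA libraries alone the difference over the span was 0.56 and did not pass (limma, adjusted p = 0.0625). Without replicate 1 of either arm of the morulae, or without replicate 2 of the control early blastocysts, the difference between early blastocysts and morulae passed, at 0.54, 0.52 and 0.53.

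Klf6 encodes an activator that binds core promoters and is abundant in placenta. It had 16.1, 25.4, 40.2 and 45.2 CPM in morulae, 68.7, 70.5, 126 and 138 CPM in early blastocysts, and 207, 211, 240 and 273 CPM in late blastocysts. No 2 stages overlapped. Klf6 rose by 1.59 (SE 0.22) on the log2 scale in early blastocysts against morulae (limma, adjusted p = 0.000197) and by 1.24 (SE 0.22) in late against early blastocysts (limma, adjusted p = 0.000609). Over the span it rose by 2.82 (SE 0.22; limma, adjusted p = 2.17e-07), by 2.31 in Tdgf1 siRNA libraries alone and by 3.34 in control libraries alone. Early blastocysts fell into 2 levels by replicate number, 132 CPM on average in the libraries numbered 1 and 69.6 CPM in those numbered 2. Summed trophectoderm markers split the same way there, at 3428 CPM (Tdgf1 siRNA) and 3690 CPM (control) in the libraries numbered 1 and 1759 CPM and 1652 CPM in those numbered 2; their part in the Klf6 levels was not tested. With the early blastocyst libraries numbered 1 alone Klf6 was 0.79 higher in late than in early blastocysts, and with those numbered 2 alone 1.68 higher.

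Klf3, which represses through CtBP, differed at the later step. It had 8.05, 9.58, 11.6 and 12 CPM in morulae, 5.70, 9.03, 14.9 and 15.8 CPM in early blastocysts, and 33.3, 36.6, 36.6 and 38.0 CPM in late blastocysts. The morula and early blastocyst libraries overlapped, and all late blastocyst libraries were above them. Klf3 rose by 1.47 (SE 0.21) in late against early blastocysts (limma, adjusted p = 0.000131) and by 1.52 (SE 0.21) over the span (limma, adjusted p = 3.41e-05), and the difference of 0.05 (SE 0.21) in early blastocysts against morulae did not pass (limma, adjusted p = 0.871). Here too early blastocysts differed by replicate number, in the other direction from Klf6, with 7.37 CPM on average in the libraries numbered 1 and 15.4 CPM in those numbered 2. The antisense gene Gm20033, which overlaps Klf3, had at most 4 reads in a library.

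**Figure D2:**
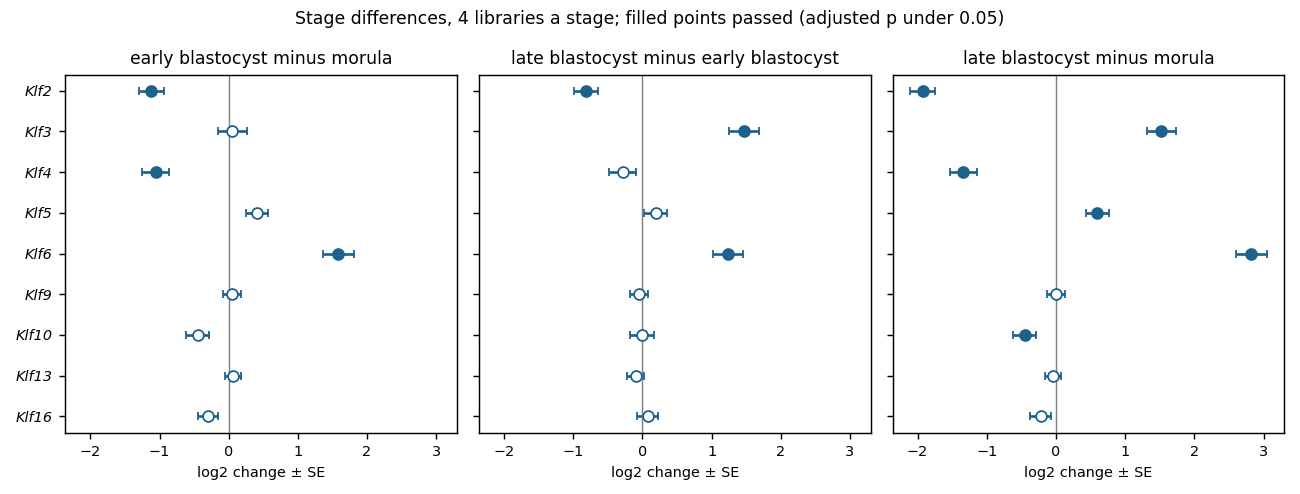
Log2 change of each tested KLF gene (x axis, with SE) in the 3 stage comparisons, later stage minus earlier, 4 libraries a stage; filled points passed limma at an adjusted p under 0.05. Klf6 is higher and Klf2 lower in all 3 panels, Klf3 is higher in the 2 panels with late blastocysts, and Klf9 and Klf13 lie next to 0.

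Among the Sin3-binding members 1 passed a stage comparison. Klf10, first described as a gene induced early by TGF-beta, had 32.9, 36.3, 43.2 and 46.5 CPM in morulae, 22.2, 29.2, 29.9 and 31.3 CPM in early blastocysts, and 19.8, 27.9, 28.4 and 37.6 CPM in late blastocysts. All early blastocyst libraries were below all morula libraries, and late blastocysts overlapped both. Klf10 fell by 0.45 (SE 0.17) in late blastocysts against morulae (limma, adjusted p = 0.0327). This call was lost without replicate 2 of the control morulae (change -0.34), of the Tdgf1 siRNA morulae (-0.40), of the control late blastocysts (-0.34) or of the Tdgf1 siRNA late blastocysts (-0.36), with adjusted p between 0.101 and 0.14 by limma, and in Tdgf1 siRNA libraries alone (-0.26). The change of -0.45 in early blastocysts against morulae did not pass (limma, adjusted p = 0.0565), although it passed by edgeR (-0.55, adjusted p = 0.0409) and DESeq2 (-0.56, adjusted p = 0.0213) on the recovered reads.

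Klf9, a member induced by thyroid and glucocorticoid hormones in other tissues, averaged 68.0 ± 6.97, 70.1 ± 4.60 and 68.3 ± 11 CPM in morulae, early and late blastocysts (SD, n = 4 each). Klf13, which in lymphocytes activates the chemokine gene Ccl5, averaged 91.7 ± 6.14, 95.6 ± 8.33 and 89.4 ± 12.5 CPM in the same order (SD, n = 4 each). Klf16 was much lower and averaged 5.23 ± 1.64, 3.50 ± 0.54 and 3.92 ± 0.86 CPM (SD, n = 4 each). The stages overlapped for all 3 genes. None of their stage differences passed: the log2 changes ran from -0.30 (Klf16, early blastocysts against morulae; limma, adjusted p = 0.143) to 0.08 (Klf16, late against early blastocysts; limma, adjusted p = 0.701). For Klf9 the change over the span was -0.00045 with an SE of 0.13, and for Klf13 -0.04 with an SE of 0.12.

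Klf17, a divergent member that in human cells marks naive pluripotency, was present at a low level. It had 2.93, 3.19, 4.85 and 6.35 CPM in morulae, 1.98, 2.25, 2.6 and 2.95 CPM in early blastocysts, and 0.53, 1.05, 1.39 and 1.74 CPM in late blastocysts, or between 6 and 68 reads in a library. Each late blastocyst library was below each early blastocyst and morula library, and morulae and early blastocysts overlapped. A two-sided exact permutation test over libraries (4 against 4, smallest possible p = 0.0286) gave differences of -0.37 (p = 0.0571) for early blastocysts against morulae, -0.35 (p = 0.0286) for late against early blastocysts and -0.72 (p = 0.0286) for late blastocysts against morulae on the log2 scale. Adjusted over these 3 tests the permutation p-values were 0.0571, 0.0429 and 0.0429. The permutation also counted the 4 libraries of a stage as separate, which the correlation of same-numbered libraries puts in doubt. By edgeR on the recovered reads of 15668 genes, which adds no large pseudocount, the change over the span was -2.07 (adjusted p = 0.000388), and the steps were -0.80 (adjusted p = 0.112) and -1.28 (adjusted p = 0.0168). By limma without the filter the last step did not pass (adjusted p = 0.13).

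Per kilobase of exon (GENCODE M21), which allows genes to be compared, morulae had Klf5 (57.3 ± 11.3 CPM per kilobase) and Klf2 (53.2 ± 15.0) at the top with overlapping ranges, then Klf4 (32.3 ± 3.26), then Klf9 (14.1 ± 1.45) and Klf13 (12.2 ± 0.82), which overlapped (SD, n = 4 each). Klf10 (9.50 ± 1.49) and Klf6 (7.22 ± 3.05) overlapped below them, Klf16 (1.96 ± 0.61) and Klf17 (1.80 ± 0.66) overlapped further down, and Klf3 (0.92 ± 0.16) was last. In early blastocysts Klf5 (76.0 ± 12.8 CPM per kilobase) stood alone, Klf2 (23.0 ± 3.36), Klf6 (23.0 ± 8.30), Klf4 (15.3 ± 4.64), Klf9 (14.6 ± 0.96) and Klf13 (12.7 ± 1.11) each overlapped the next, Klf10 (6.73 ± 0.96) was apart, and Klf16 (1.31 ± 0.20), Klf17 (1.02 ± 0.18) and Klf3 (1.01 ± 0.43) overlapped. In late blastocysts Klf5 (86.5 ± 12.9 CPM per kilobase) was followed by Klf6 (53 ± 6.99) without overlap. Klf9 (14.2 ± 2.29), Klf2 (12.3 ± 2.30), Klf4 (12.3 ± 3.39) and Klf13 (11.9 ± 1.66) then overlapped in sequence, and Klf10 (6.81 ± 1.74), Klf3 (3.22 ± 0.18), Klf16 (1.46 ± 0.32) and Klf17 (0.49 ± 0.22) followed with no overlap between neighbours. Klf6 was rank 2 in late blastocysts, against rank 7 in morulae, and Klf2 was rank 4 in late blastocysts, against rank 2 in morulae. The order depends on the length used. Over the longest transcript Klf2 was rank 6 in late and rank 3 in early blastocysts, and Klf13 was rank 4 in late blastocysts. For Klf3, over its exons of 11243 bases it was rank 10 in morulae and early blastocysts, and over its longest transcript of 5221 bases rank 8.

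**Figure D3:**
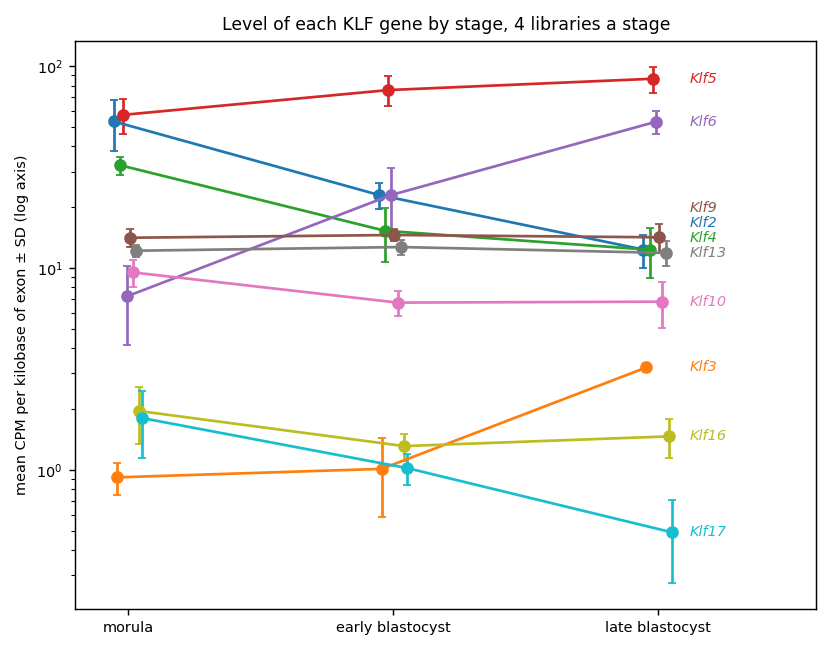
Mean level of each KLF gene in CPM per kilobase of exon (y axis, log scale, with SD) at the 3 stages, 4 libraries each. Klf5 stays on top (57.3, 76.0 and 86.5), Klf6 is at 53 in late blastocysts, against 7.22 in morulae, and Klf2, Klf4, Klf9 and Klf13 lie close together in late blastocysts.

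Summed per kilobase, the 10 members came to 180.1 to 203.2 CPM per kilobase in morulae, 144.5 to 203.1 in early blastocysts and 193 to 218 in late blastocysts, ranges that overlap. Within that sum Klf2 and Klf4 together made up 39.7% to 54.5% in morulae, 17.8% to 23.8% in early blastocysts and 9.15% to 15.0% in late blastocysts. The share of Klf6 was 1.80% to 5.26%, 9.57% to 17.2% and 22% to 31.2% at those stages. Neither share overlapped between any 2 stages, while the share of Klf5 (22.2% to 36.0%, 40.9% to 45.7% and 38.0% to 47.8%) overlapped between the blastocyst stages. Sums and shares depend on the length used and were taken over exons only. Over all libraries Klf5 averaged 114 CPM per kilobase of its longest transcript, against 73.3 per kilobase of exon.

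**Figure D4:**
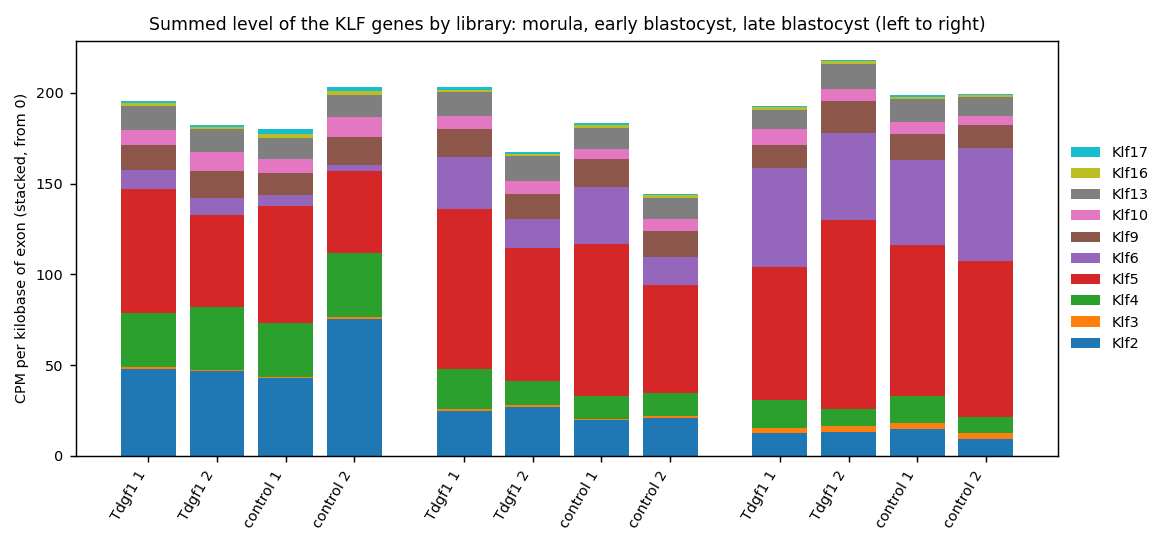
Summed level of the KLF genes in CPM per kilobase of exon (y axis, stacked from 0) in each of the 12 libraries (x axis), grouped by stage with Tdgf1 siRNA left of control. The total lies between 144.5 and 218, with Klf2 and Klf4 (blue and green) shrinking and Klf6 (purple) growing along the stages.

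Across the 12 libraries the log2 levels of Klf2, Klf4, Klf5 and Klf6 were related to each other as stage would order them. Klf9 and Klf13 had r between -0.08 (Klf13 with Klf6) and 0.265 (Klf13 with Klf5) with these genes, and 0.58 with each other. The correlations here are given with no test, since libraries of a stage share that stage. Klf2 went with Klf4 (Pearson r = 0.91) and against Klf6 (r = -0.96), and Klf5 went with Klf6 (r = 0.83). The 3 genes outside the family most like Klf2 were Sun1 (r = 0.99), Nudt4 (0.98) and Gnl3l (0.98). Those most like Klf6 were Gcnt1 (0.99), Zfp64 (0.98) and Kmt2a (0.98), and the most opposite gene for any member was Hiat1 with Klf6 (r = -0.99). Klf4 was most like Pabpc1 (0.98), Cbx3 (0.97) and Rmnd5a (0.97), Klf3 like Tnnt1 (0.97), Msra (0.97) and Slc39a2 (0.96), and Klf5 like Zfp692 (0.96), Mrps15 (0.96) and Tax1bp3 (0.95). Klf10 was most like Wiz (0.97), Myef2 (0.92) and B3gat2 (0.91). The closest genes were less close for Klf16 (Mcm2 0.86, Cby1 0.86, Itpr3 0.84), Klf9 (Zbtb7a 0.82, Plekhg3 0.81, Gm1976 0.81) and Klf13 (Rbm12b2 0.80, Bcorl1 0.80, Zfand2b 0.77).

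The comparison of Tdgf1 siRNA with control siRNA asked whether siRNA against this Nodal co-receptor goes with a change in the family. At each stage 0 of the 9 tested members and 0.0% of all genes passed limma, and the same held for the difference averaged over the 3 stages. By edgeR 0 genes were called in each as well. Tdgf1 itself was tested and did not pass in these fits, at 42.6% to 116.5% of the same-numbered control. The 0 calls therefore do not show that the family was unchanged. At an unadjusted p under 0.05, 2 members were called in morulae (Klf6 and Klf16), against 1.8% of all genes, and 0 at either blastocyst stage, against 1.04% in early and 2.06% in late blastocysts. Averaged over the stages 0 members were called at that level, against 2.49% of all genes. Apart from Klf6, the members' log2 changes at the single stages lay between -0.47 and 0.40.

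Klf6 had 45.2 and 40.2 CPM in Tdgf1 siRNA morulae, against 25.4 and 16.1 CPM in control morulae. Both Tdgf1 siRNA libraries were above both controls, at 178% and 250.2% of the control with the same number. The log2 change was 0.95 (SE 0.31), with an unadjusted p of 0.00888 and an adjusted p of 1.0 by limma. With same-numbered libraries as pairs it passed (limma with the replicate block, adjusted p = 0.0446), 1 of 5 genes (0.0465%) called in that fit; the paired fit called 0 members in early blastocysts, against 0.0465% of all genes, and 0 in late blastocysts, against 0.0279%. Over the alternatives tried the adjusted p ran from 0.0446 to 1.0, and without replicate 2 of the control morulae the change was 0.67. Klf6 did not show this difference at the later stages. It had 126 and 70.5 CPM in early blastocysts labelled Tdgf1 siRNA, against 138 and 68.7 CPM in those labelled control, and 240.0 and 211 CPM in Tdgf1 siRNA late blastocysts, against 207 and 273 CPM in controls. The groups overlapped at both stages, with log2 changes of -0.04 and -0.08 (SE 0.31 each). Whether the siRNA difference was unequal between stages was tested with limma's F test over the 3 stages: for Klf6 the unadjusted p was 0.0588 and the adjusted p 0.9999, and with the replicate block 0.000272 and 0.195, where 0 members and 0.0093% of all genes were called.

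Klf16, which binds Sin3 like Klf9 and Klf13, had 3.97 and 3.66 CPM in Tdgf1 siRNA morulae, against 6.44 and 6.84 CPM in control morulae. The groups did not overlap, and the log2 change was -0.47 (SE 0.21; limma, adjusted p = 1.0). In late blastocysts it had 4.71 and 4.41 CPM with Tdgf1 siRNA, against 3.76 and 2.78 CPM in controls, the opposite order. Klf17 in morulae had 3.19 and 2.93 CPM with Tdgf1 siRNA, against 6.35 and 4.85 CPM in controls (37 and 32 reads against 68 and 51), and in late blastocysts 1.05 and 0.53 CPM, against 1.74 and 1.39 CPM. It was lower in both pairs at both stages and higher in both pairs of early blastocysts, of which the second went against its labels by Tdgf1, and no difference passed edgeR (adjusted p = 1.0 at each stage).

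In morulae the siRNA groups of the tested members did not overlap for Klf6 and Klf13, higher with Tdgf1 siRNA, and for Klf3 and Klf16, lower, against 15.5% and 12% of all genes. In early blastocysts Klf2, Klf4, Klf10 and Klf13 were above the controls without overlap and 0 members below, against 9.38% and 10% of all genes, and the members' median log2 change was 0.21, against 0.00 for all genes. Tdgf1 followed its labels in the first pair of that stage. There these 4 genes stood at 126%, 170.1%, 141% and 113% of the control. In the second pair they stood at 128.7%, 103.8%, 102.3% and 118.7%. Groups without overlap place a gene above its control in each pair, so these percentages are no separate check. The 170.1% of Klf4 rests on the library of 67.77 CPM, against 38.63 to 40.11 CPM in the others of that stage. The other tested members stood in the first pair at 158.2% (Klf3), 105.2% (Klf5), 91.63% (Klf6), 98.91% (Klf9) and 70.89% (Klf16). In late blastocysts Klf16 was above and Klf3 below the controls, against 18.0% and 13.9% of all genes. The Klf3 groups all but touched, at 36.62 CPM with Tdgf1 siRNA and 36.64 CPM in the control of the second pair, and its log2 change was -0.09 (SE 0.30). Summed epiblast markers also lay above the controls without overlap at the blastocyst stages, at 879 and 834 CPM in libraries labelled Tdgf1 siRNA, against 765 and 795 CPM in those labelled control, in early blastocysts, and at 318 and 306 CPM with Tdgf1 siRNA, against 250.2 and 263 CPM in controls, in late blastocysts. Summed trophectoderm markers were 5286 and 5944 CPM in Tdgf1 siRNA late blastocysts, against 6577 and 7544 CPM in controls. In early blastocysts they overlapped, at 3428 and 1759 CPM in libraries labelled Tdgf1 siRNA, against 3690 and 1652 CPM in those labelled control. Summed primitive endoderm markers were 366.6 and 369.2 CPM in Tdgf1 siRNA late blastocysts, against 357.5 and 304.5 CPM in controls, and overlapped at the earlier stages. Summed markers of the 2-cell stage, of which 1 of 7 passed the filter (Gm5662), were 11.7 to 20.4 CPM in Tdgf1 siRNA morulae, against 4.67 to 11.4 CPM in controls, and also higher at the later stages. The part of these marker lists in the differences was not tested.

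**Figure D5:**
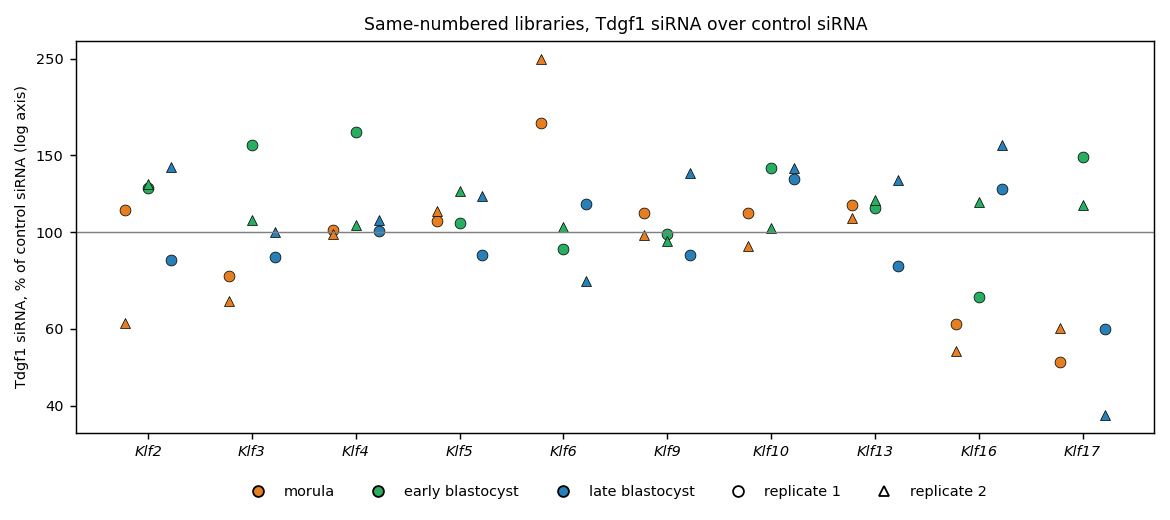
Level of each KLF gene in Tdgf1 siRNA libraries as a percent of the same-numbered control library (y axis, log scale), for 2 pairs at each of the 3 stages; the grey line is 100%. Klf6 in morulae (178% and 250.2%) lies above all other points, and the late blastocyst pair of Klf17 at 38.1% is the lowest.

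The other KLF and SP genes share the zinc finger domain. Of 16 that were measured, 9 were tested, and in late blastocysts against morulae 4 were higher and 1 lower (median log2 change 0.02). Klf7 averaged 13.0 ± 4.03 CPM in late blastocysts, against 2.14 ± 1.5 CPM in morulae (SD, n = 4 each; limma, adjusted p = 9.32e-05). Klf15 averaged 8.15 ± 2.59 CPM against 0.57 ± 0.86 CPM (limma, adjusted p = 0.000393), and Sp3, an activator and repressor at GC boxes, 110 ± 4.88 CPM against 50.8 ± 3.52 CPM (limma, adjusted p = 1.85e-05). Sp1, the founding factor of the GC box, averaged 79.0 ± 13.3 CPM in early blastocysts, against 111 ± 12.5 CPM in morulae (limma, adjusted p = 0.0172).

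Of 12 genes of the LIF and Stat3 pathway, which acts on Klf4 and Klf5, 11 were tested, and in late blastocysts against morulae 5 were higher and 3 lower (median 0.38). Stat3 averaged 131 ± 24.7 CPM in late blastocysts, against 27.9 ± 8.26 CPM in morulae (SD, n = 4 each; limma, adjusted p = 1.00e-05), and the ligand gene Lif 12.1 ± 3.62 CPM in late blastocysts against 1.497 ± 0.54 CPM (limma, adjusted p = 1.67e-05). Among the 3 lower was Pim1, at 7.18 ± 2.19 CPM in late blastocysts, against 34.65 ± 3.86 CPM in morulae (limma, adjusted p = 4.8e-07). Socs3, a feedback inhibitor of the pathway, averaged 1.13 ± 0.48 CPM in early blastocysts, against 15.8 ± 3.25 CPM in morulae (limma, adjusted p = 2.86e-05). Of 14 naive pluripotency factors 11 were tested, with 2 higher and 7 lower over the span (median -0.85). Nanog averaged 94.2 ± 15.3 CPM in late blastocysts, against 399.7 ± 117 CPM in morulae (limma, adjusted p = 3.87e-07), and Tbx3 43.0 ± 4.36 CPM against 147 ± 29.2 CPM (limma, adjusted p = 9.18e-07). In early blastocysts Nanog was still at 373 ± 63.5 CPM. Against morulae 3 factors were higher there and 4 lower, against 19.7% and 14.0% of all genes. Among the higher was Sox2, at 14.1 ± 8.83 CPM against 2.20 ± 0.37 CPM in morulae (limma, adjusted p = 0.00226).

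Of 12 genes for corepressors and coactivators that KLF proteins bind, 11 were tested, with 6 higher and 4 lower over the span (median 0.62). Sin3b averaged 196 ± 20.7 CPM in late blastocysts, against 83.0 ± 5.50 CPM in morulae (SD, n = 4 each; limma, adjusted p = 7.03e-07). Ctbp1, the partner of Klf3, averaged 72.8 ± 13.5 CPM against 30.1 ± 2.05 CPM (limma, adjusted p = 0.000292), and Hdac1 89.1 ± 4.74 CPM against 201 ± 34.3 CPM (limma, adjusted p = 6.07e-06). Of 12 ubiquitin ligases and other regulators of KLF protein stability 11 were tested, with 3 higher and 6 lower (median -0.55). Fbxw7, a ligase subunit that targets Klf2 and Klf5, averaged 25.1 ± 4.67 CPM in late blastocysts, against 6.13 ± 2.81 CPM in morulae (limma, adjusted p = 0.000172). Prmt5, among the 6 lower, averaged 71.6 ± 3.73 CPM in late blastocysts, against 186 ± 12.2 CPM in morulae (limma, adjusted p = 2.12e-07). The background for these counts is 36.6% higher and 24.3% lower, and no gene of any list passed in an siRNA comparison.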

How the data were processed

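Per the file headers, the columns of the 1 deposited table hold RPKM. However, every column sums to 279173.646 and every value (100.0% within 0.01 reads) is a whole multiple of 1 step per column. The deposited values are therefore CPM divided by 3.582, with no division by gene length, and were multiplied back. The submitters' processing notes list HISAT2 2.1.0, Cufflinks, HTSeq and edgeR and the build mm10; no strand setting is given in the sources used here. The design had assumed RPKM; its test suits CPM and was kept.

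In R 4.3.3, limma 3.58.1 with a mean-variance trend (lmFit, then eBayes) fitted 6 group means to all 12 libraries, with 6 residual and 7.55 prior degrees of freedom. Alternatives were edgeR 4.0.16 and DESeq2 1.42.0 on the recovered reads, TMM and quantile scaling, a pseudocount of 0.1, filters at 0 and 5, single arms, leaving out each library, and the replicate number as a block. Deviations of same-numbered libraries correlated at 0.458, 0.593 and 0.101 within morulae, early and late blastocysts. Numbers were taken as pairs within stages because each exceeded a limit of 0.1, in late blastocysts only just; this comes from the data and not from the labels. The limma fit, limma with the replicate block, edgeR and DESeq2 were run on simulated reads, and the other alternatives were not. Members and lists were chosen with earlier results of these data known. Named genes are the members, the 3 most correlated genes of each tested member, the most opposite gene, and up to 3 genes of a list with the largest changes.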

Additional observations from a re-analysis of the deposited data

Results flagged for a closer look

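Over the 30 combinations of 10 genes and 3 stages, 2 had 1 library far from the other 3 of its stage, and chance gives about 1 in 20 groups. Klf2 in morulae was 139.3 CPM in replicate 2 of the control siRNA libraries, against 78.8 to 88.6 CPM in the other 3 morula libraries. Klf4 in early blastocysts was 67.77 CPM in replicate 1 of the Tdgf1 siRNA libraries, against 38.6 to 40.1 CPM in the other 3. Without that morula library the log2 change of Klf2 was -0.92 in early and -1.73 in late blastocysts against morulae, both past the threshold, and without that early blastocyst library that of Klf4 in early blastocysts against morulae was -1.23, also past it (limma).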

How the results depend on the processing

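Of the members' stage calls, those of Klf2, Klf3, Klf4 and Klf6 kept their direction and passed under every alternative run, single arms and each library left out included. The single arms used the spread of all 12 libraries. Even so, some passed only just by limma. Klf4 in early blastocysts against morulae had an adjusted p of 0.0496 with Tdgf1 siRNA. Klf2 in late against early blastocysts had 0.0482 in controls. The call of Klf5 over the span missed in Tdgf1 siRNA libraries alone (0.561), and that of Klf10 missed without the filter (-0.452), in Tdgf1 siRNA libraries alone (-0.263) and without each of the 4 morula or late blastocyst libraries numbered 2; the cause was not tested. Klf10 in early blastocysts against morulae passed under quantile normalization (-0.485), TMM (-0.492), edgeR (-0.545) and DESeq2 (-0.559). Klf16 over the span passed under quantile normalization (-0.494) and in controls alone (-0.581) and turned to 0.139 in Tdgf1 siRNA libraries alone. Klf17 in late against early blastocysts passed the exact test and missed in limma without the filter (-0.345).

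Values near 0 that did not pass changed sign. For early blastocysts against morulae these were Klf3 under quantile normalization (-0.00359), in controls alone (-0.233) and with the early blastocysts numbered 1 alone (-0.351); Klf9 under TMM (-0.000783), edgeR (-0.00597), DESeq2 (-0.0198), in Tdgf1 siRNA libraries alone (-0.00316) and with numbers 2 alone (-0.0297); and Klf13 under quantile normalization (-0.00381) and DESeq2 (-0.00137). For late against early blastocysts they were Klf9 (0.0407) and Klf10 (0.0773) in Tdgf1 siRNA libraries alone, Klf9 with numbers 2 alone (0.0292), Klf10 with numbers 1 alone (0.0657), and Klf16 under quantile normalization (-0.0848), in controls alone (-0.0819) and by edgeR over more genes (-0.0196). Klf9 over the span was 0.0375 in Tdgf1 siRNA libraries alone, and Klf6 between arms of early blastocysts 0.0354 with numbers 2 alone. With 1 library left out, the ranges of results that changed sign were, for early blastocysts against morulae, -0.195 to 0.301 (Klf3) and -0.0305 to 0.122 (Klf9); for late against early blastocysts -0.161 to 0.0692 (Klf9) and -0.118 to 0.107 (Klf10); over the span -0.116 to 0.115 (Klf9) and -0.14 to 0.0562 (Klf13); and between arms for Klf6 -0.529 to 0.441 in early and -0.275 to 0.119 in late blastocysts.

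Members called higher in early blastocysts against morulae were 1 to 2 with a library left out and 2 with the early blastocysts numbered 1 alone. Genes called higher there were 2114, against 1333 without the filter, 946 in Tdgf1 siRNA libraries alone, 1023 in controls alone and 1375 with numbers 2 alone; genes called lower were 1509, against 712 in Tdgf1 siRNA libraries and 679 in controls. In late against early blastocysts 2901 genes were higher, against 1753 with the filter at 5, 1616 in Tdgf1 siRNA libraries, 1775 in controls and 1914 with numbers 1 alone, and 1902 lower, against 923 in Tdgf1 siRNA libraries and 1204 in controls. Over the span 3930 were higher, against 2481 with the filter at 5, and 2617 lower, against 3965 by edgeR over more genes. Quantile normalization moved the median of all genes by -0.197 and TMM by -0.121 over the span; 60% of calls over the span were higher, against 46.6% under quantile normalization, and 60.4% in late against early blastocysts, against 46.8%. Klf5 over the span was 0.46 under TMM and 0.67 under quantile normalization.

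Between the siRNA arms the replicate block (same-numbered libraries as pairs) called Klf6 in morulae (0.954), so 1 member, and 5 genes higher there, 5 lower in early blastocysts, and 2 higher and 1 lower in late blastocysts; it changed no other call of a member. In late blastocysts 6 genes were higher and 5 lower without the filter, 1 was lower by DESeq2, and 0 to 1 were lower with a library left out. Between stages numbers were not taken as pairs, since 1 of 2 correlations (0.00575 and 0.138) was under the limit of 0.1, although 0.138 exceeds the 0.101 accepted within late blastocysts. As an alternative the replicate number was still run as a block in the stage comparisons, and it changed no stage call of a member. That block fits 1 number effect shared by all stages. It cannot take up a split by number that differs between stages, so the unchanged calls are no check on such splits. Per kilobase of the longest transcript the mean levels were 3.69 for Klf3, 114 for Klf5, 10.5 for Klf10 and 14.4 for Klf13, against 1.72, 73.3, 7.68 and 12.2 per kilobase of exon. Depth limits Klf17 most, with 6 to 68 reads in a library; Klf16 was not tested with the filter at 5. The alternatives with early blastocysts of 1 replicate number and edgeR over 15668 genes were chosen after seeing the data.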

Other observations

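Of 12 trophectoderm genes, all tested, 9 were higher and 3 lower in late blastocysts against morulae (median log2 change 2.79), against 36.6% and 24.3% of all genes. Krt18, a keratin of simple epithelia, averaged 3340 ± 661 CPM in late blastocysts, against 136 ± 43.4 CPM in morulae (SD, n = 4 each; limma, adjusted p = 4.18e-08). Of 12 primitive endoderm genes 10 were tested, with 9 higher and 1 lower (median 1.70). Pdgfra, a receptor of that lineage, averaged 56.6 ± 7.57 CPM in late blastocysts, against 5.73 ± 2.62 CPM in morulae (limma, adjusted p = 1.53e-07).

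Of 20 immediate early genes 9 were tested, with 5 higher and 2 lower over the span (median 0.65), Btg2 at 22.1 ± 4.12 CPM in late blastocysts, against 6.82 ± 2.03 CPM in morulae (SD, n = 4 each; limma, adjusted p = 2.22e-05). Of 16 Nodal and TGF-beta genes 11 were tested, with 5 higher and 0 lower (median 0.41). Of 10 cell cycle inhibitors and p53 genes named as KLF targets 6 were tested, with 1 higher and 4 lower (median -0.62). Members of the wider family below the filter included Klf1 (at most 2.52 CPM in a library), Klf12 (at most 1.1 CPM) and Klf14 (at most 0.698 CPM).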
